A study of Mus musculus with 16 samples.

Results

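APP loss was measured as the main effect of a 2 by 2 design, with the 8 arrays of APPKO and N-dCKO mice set against the 8 arrays of WT and APLP2KO mice. The arrays were chosen by their titles, and they are all 16 arrays of the series. Each array holds hippocampal RNA of a male mouse aged 2 months, of a strain spelled C56/BL6 in the labels. APPKO mice lack APP (genotype APP-/-), and N-dCKO mice are labelled as lacking APP and APLP2 (genotype APP-/-; APLP2-/-). WT mice are wild type, and APLP2KO mice lack APLP2 (genotype APLP2-/-), so that both N-dCKO and APLP2KO mice are without APLP2. Each group has 4 arrays. The series title calls the double mutant neuronal and conditional, and the Cre driver and the cells that carry the deletion were not given in the sources used here. Replicates carry numbers only, and nothing in the labels says that they are separate animals, and p-values therefore reflect only how far these samples differ, possibly for technical reasons. APPKO and N-dCKO arrays are called APP-loss arrays below, and WT and APLP2KO arrays APP-bearing arrays. Of the genes that mark hippocampal neurons, 16 of 18 for dentate granule cells and 20 of 20 on the array for pyramidal cells passed the filter on low values. Of all genes, 11664 of 18193 passed it. C1ql3, a secreted protein of granule cells, had signals of 4722 to 5617 on the APP-loss arrays and 4824 to 6107 on the APP-bearing arrays.

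APP, the amyloid precursor protein, is a membrane protein made in large amounts by neurons. Secretases cut it to release its ectodomain, the amyloid-beta peptide and a short intracellular domain, and APLP1 and APLP2 are its relatives with partly overlapping functions. Myelin, the sheath that oligodendrocytes wrap around axons, is rich in cholesterol, and oligodendrocytes make much of that cholesterol themselves. Microglia are the resident macrophages of the brain and its main source of complement C1q.

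With APP loss, 2 of 11664 genes tested (0.0171%) passed the test, both lower: App itself and Mag, the myelin-associated glycoprotein on the inner face of the myelin sheath. Several other genes of oligodendrocytes had changes of similar size but did not pass. In the oligodendrocyte and myelin list values ran from -0.64 to -0.10, with an adjusted p of 0.0632 for Enpp6 and 0.598 for Mbp (limma). In all 19 tested genes of the oligodendrocyte and myelin list the log2 fold change was negative, in APPKO against WT and, on separate arrays, in N-dCKO against APLP2KO. The test was limma on log2(signal + 9), with Benjamini-Hochberg adjustment over all genes and a threshold of 0.05. The ± sign gives the SE of a log2 fold change or the SD of signals. At an adjusted p below 0.1, a threshold chosen after the data were seen, 54 genes passed (0.463%), of which 48 were lower (0.412%) and 6 higher (0.0514%). At an unadjusted p below 0.05, 617 genes were lower (5.29%) and 452 higher (3.88%).

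The count of calls depends on whether the replicate numbers are taken to pair the arrays. In APPKO and WT, arrays of the same number deviated from their group means together (residual correlations 0.301, 0.286, 0.195 and 0.192), which meets the rule used for pairing. In N-dCKO and APLP2KO the correlations were 0.082, 0.208, 0.091 and 0.136, which does not meet it in every pair, so the unpaired test is kept for the main effect. With the number as a block within each APLP2 background, a fit chosen after the data were seen, 142 genes passed in the main effect, of which 131 were lower, 11 higher and 16 in the myelin list. In APPKO against WT, where the rule is met, 10 genes passed in that fit, in place of 1. With 1 block per number across all groups, 66 genes passed in the main effect. Log2 fold changes are the same in these fits, and only their errors differ.

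App had signals from 1959 to 2724 on the APP-loss arrays, with a median of 2362. On the APP-bearing arrays its signals ran from 17314 to 21078, with a median of 19181. The ranges lie far apart, and every array matched its genotype label. The log2 fold change was -3.02 ± 0.05 (limma, adjusted p = 1.26e-19, n = 8 each), close in size without APLP2 (-3.16 ± 0.07, N-dCKO against APLP2KO) and with it (-2.88 ± 0.07, APPKO against WT). A second App probe set averaged 661 ± 37.0 in APPKO and 612 ± 64.8 in N-dCKO, against 11463 ± 445 in WT and 12138 ± 879 in APLP2KO (n = 4 each). That is 5.76% of the WT signal in APPKO and 5.04% of the APLP2KO signal in N-dCKO, and in these arrays the mean residual signal was not higher in N-dCKO than in APPKO. The exact permutation test within each APLP2 background gave p = 0.000408, the smallest it can give, for both probe sets (adjusted p = 0.00224 over the 11 probe sets of the family). A further pair of App probe sets had signals near background in all groups and checks nothing. Their place relative to the deleted part was not given in the sources used here.

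Relatives of App did not pass the test of APP loss. Aplp1, the relative found in neurons, had signals of 13459 to 16227 on the APP-loss arrays and 13578 to 16547 on the APP-bearing arrays (log2 fold change -0.02 ± 0.05, adjusted p = 0.954, limma). Aplp2 had a log2 fold change of -0.12 ± 0.08 (adjusted p = 0.724, limma). Its brightest probe set averaged 5778 ± 277 in APPKO and 999 ± 122 in N-dCKO, against 5984 ± 229 in WT and 1162 ± 276 in APLP2KO, which follows the APLP2 genotypes.

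**Figure D1:**
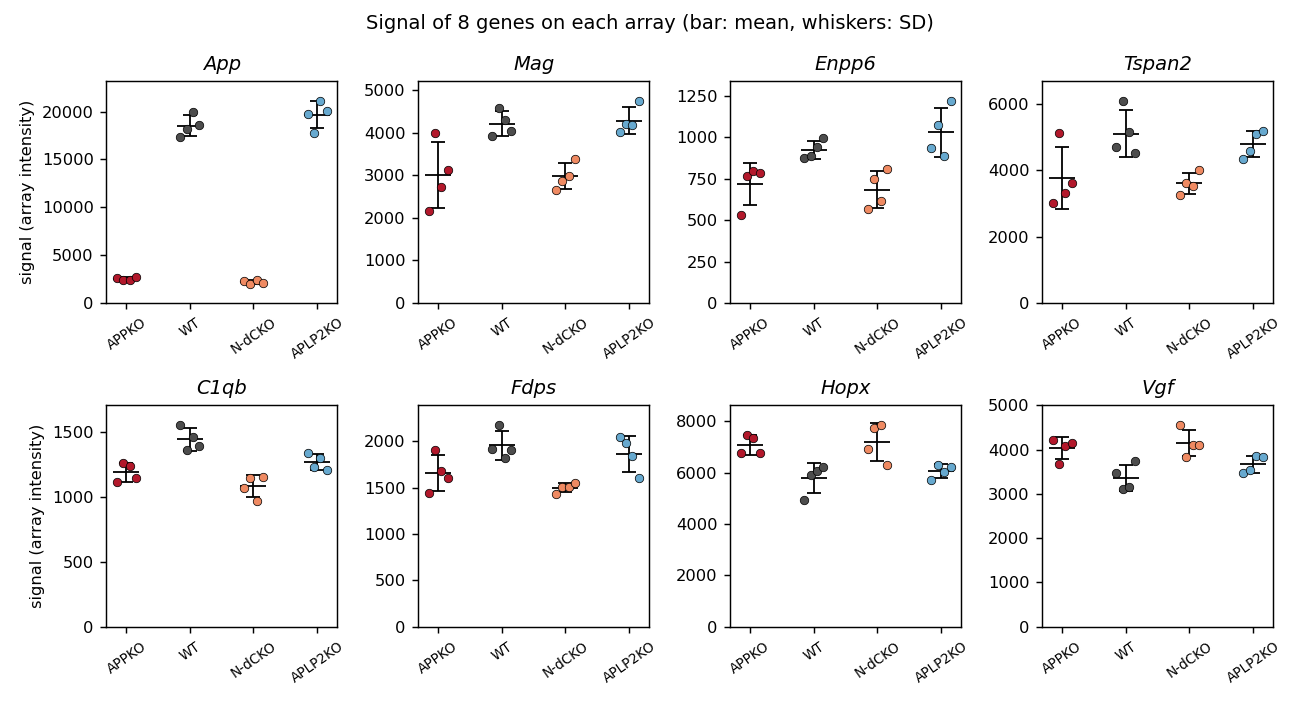
Signal (array intensity, linear axis from 0) of 8 genes on each of the 16 arrays, with the mean and SD of the 4 arrays per group. App separates both groups without APP from both groups with it, and for Mag APPKO replicate 2, at 3988, lies among the APP-bearing arrays.

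Mag had signals of 2158, 3988, 2732 and 3125 in APPKO, and of 2659, 2861, 2988 and 3382 in N-dCKO. Its signals were 3931, 4579, 4291 and 4029 in WT, and 4012, 4201, 4175 and 4737 in APLP2KO. The groups overlap through 1 array, APPKO replicate 2, which sits above the lowest WT array, while the other APP-loss arrays all lie below every APP-bearing one. The mean signal on the APP-loss arrays was 70.4% of that on the APP-bearing arrays. Mag fell with APP loss by 0.52 on the log2 scale (SE 0.09, limma, adjusted p = 0.0475). The log2 fold change was -0.52 ± 0.12 in APPKO against WT and -0.53 ± 0.12 in N-dCKO against APLP2KO. Neither passed alone in the unpaired test (adjusted p = 0.758 and 0.151, limma). Mag was lower in APPKO and in N-dCKO than in the same-numbered WT and APLP2KO array in all 8 numbered pairs, APPKO replicate 2 against WT replicate 2 included. The unpaired call is narrow: it was lost in 12 of the 16 fits that leave out 1 array, with an adjusted p of up to 0.121 (limma). Without APPKO replicate 2 the adjusted p was 0.000362 (limma), but that fit drops the 1 array that overlaps and is no support for the call.

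The sequence upstream of the Mag start is shown because it holds letters resembling the binding sequence of MYRF, a transcription factor that drives myelin genes. It covers chr7:30914864-30915113 of GRCm38.p6, minus strand, from RefSeq, and the capitals mark CTGGNAC or its reverse complement.
Mag: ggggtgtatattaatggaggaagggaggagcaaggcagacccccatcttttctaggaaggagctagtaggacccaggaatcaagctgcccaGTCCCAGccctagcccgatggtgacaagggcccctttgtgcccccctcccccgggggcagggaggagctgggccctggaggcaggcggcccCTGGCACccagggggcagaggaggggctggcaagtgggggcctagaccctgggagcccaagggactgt
These letters were found 2 times in this window. Of the 15 myelin-list genes with a promoter in the RefSeq table, 4 held the motif on either strand in the 250 bases before the start (26.7%), against 16% of 27025 promoters of all genes. A match is a description and no evidence of binding.

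The other 18 tested members of the list of oligodendrocytes and myelin did not pass the test at 0.05, and their values follow. Enpp6, a choline phosphodiesterase of young oligodendrocytes, had signals from 529 to 809 on the APP-loss arrays (median 755), against 875 to 1219 on the APP-bearing arrays (median 942). These ranges do not overlap, which held for 8 genes of all 11664 (0.0686%). Its log2 fold change was -0.48 ± 0.09 (limma, adjusted p = 0.0632). Tspan2, a tetraspanin of the oligodendrocyte membrane, had signals of 3028 to 5122 on the APP-loss arrays and 4354 to 6087 on the APP-bearing arrays (-0.44 ± 0.09, adjusted p = 0.0632, limma). Cldn11, the claudin that forms the tight junctions of central myelin, had signals of 2988 to 4930 on the APP-loss arrays and 4455 to 6595 on the APP-bearing arrays (-0.45 ± 0.09, adjusted p = 0.0652, limma). For both genes the highest APP-loss array was again APPKO replicate 2, and both ranges overlap through it alone.

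Over the whole list, log2 fold changes ran from -0.64 for Mal, a proteolipid of compact myelin, to -0.10 for Mbp, the myelin basic protein. Counted against all genes, 17 of the 19 members had an unadjusted p below 0.05 with a negative value, where 5.29% of all genes did. At an adjusted p below 0.1, 10 of the 19 passed, where 0.412% of all genes were lower. The median of the list was -0.47, against 0.00 over all genes, of which 49.2% were negative. It was -0.48 in APPKO against WT and -0.41 in N-dCKO against APLP2KO. The list and the other lists were chosen with earlier results of these data known, so these counts are a description. In bulk tissue, fewer cells of a type and less RNA per cell cannot be told apart.

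**Figure D2:**
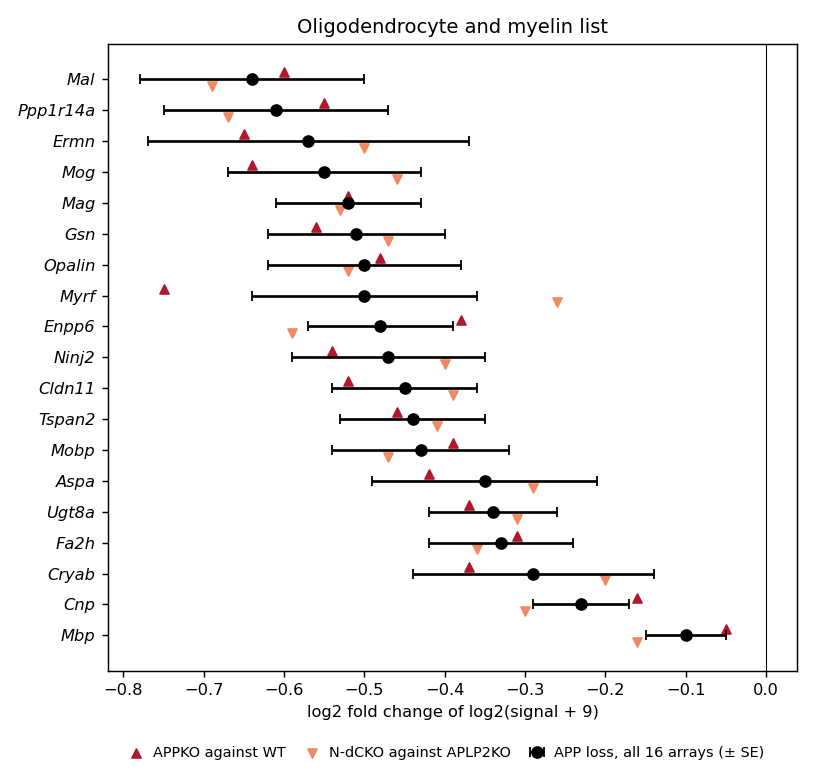
Log2 fold change of each tested member of the oligodendrocyte and myelin list: black points give the effect of APP loss over all 16 arrays with its SE, upward triangles APPKO against WT, downward triangles N-dCKO against APLP2KO. All 19 members lie left of 0 in both comparisons, from -0.64 for Mal to -0.10 for Mbp in the combined effect.

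Array by array, the myelin list averaged log2 signals of 10.73, 11.56, 10.94 and 11.02 in APPKO and 10.69, 11.03, 11.04 and 11.11 in N-dCKO. It was 11.41, 11.77, 11.51 and 11.39 in WT and 11.28, 11.40, 11.37 and 11.51 in APLP2KO. Of the 8 APP-loss arrays, 7 lay below every APP-bearing array, and APPKO replicate 2 lay within the APP-bearing range but below WT replicate 2, which had the highest mean. In all 8 numbered pairs the APP-loss array was the lower one. Without APPKO replicate 2, 94 genes passed the test in place of 2, of which 86 were lower, and 15 of them belong to the myelin list. The median of the myelin list was then -0.52. This fit drops the array that overlaps and keeps WT replicate 2, the highest, so a larger difference is built in and is no support. Its count was the highest of the fits that leave out 1 array, with 28 without N-dCKO replicate 3.

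The list of oligodendrocyte precursors, the cells from which oligodendrocytes arise, had 10 of 11 tested members with negative values and a median of -0.16. No member passed at 0.05, and 6 were lower at an unadjusted p below 0.05, where 5.29% of all genes were. Olig1, a transcription factor of the whole lineage, had signals of 6070 to 7274 on the APP-loss arrays and 6843 to 8199 on the APP-bearing arrays (-0.18 ± 0.04, adjusted p = 0.104, limma). Sox10, a factor that the lineage needs to mature, gave -0.30 ± 0.09 (adjusted p = 0.227, limma), and Vcan, a matrix proteoglycan of precursors, gave -0.19 ± 0.06 (adjusted p = 0.227, limma). Pdgfra and Cspg4, the receptor and the proteoglycan by which precursors are usually recognised, had values of -0.05 and 0.08.

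Cholesterol and fatty acid synthesis genes had 26 of 29 tested members with negative values, and 23 of them were negative in both comparisons. The median was -0.14, and 15 members were lower at an unadjusted p below 0.05, where 5.29% of all genes were. No member passed at 0.05. Fdps, which makes farnesyl diphosphate, had signals of 1432 to 1905 on the APP-loss arrays (median 1529), against 1602 to 2178 on the APP-bearing arrays (median 1917). Its log2 fold change was -0.28 ± 0.06 (adjusted p = 0.08, limma). Fdft1, the squalene synthase, gave -0.21 ± 0.05 (adjusted p = 0.0803, limma), and Stard4, a carrier of sterol between membranes, gave -0.28 ± 0.07 (adjusted p = 0.116, limma). Msmo1, a sterol methyl oxidase, had signals of 2095 to 3255 on the APP-loss arrays and 2918 to 3606 on the APP-bearing arrays (-0.26 ± 0.06, adjusted p = 0.114, limma). The members with positive values were Fads1, Fads2 and Fasn, which act in fatty acid synthesis and desaturation, at 0.06, 0.01 and 0.04. Averaged over the list, the log2 signal ran from 10.28 to 10.51 on the APP-loss arrays and from 10.53 to 10.63 on the APP-bearing arrays. These ranges did not overlap, but only narrowly: the nearest arrays were APPKO replicate 2 at 10.51 and WT replicate 1 at 10.53.

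The promoter of Msmo1 is shown because the CCAAT letters, bound by NF-Y beside the sterol-sensing SREBP factors, recur in this list. It covers chr8:64733579-64733828 of GRCm38.p6, minus strand, from RefSeq, and the capitals mark CCAAT or its reverse complement.
Msmo1: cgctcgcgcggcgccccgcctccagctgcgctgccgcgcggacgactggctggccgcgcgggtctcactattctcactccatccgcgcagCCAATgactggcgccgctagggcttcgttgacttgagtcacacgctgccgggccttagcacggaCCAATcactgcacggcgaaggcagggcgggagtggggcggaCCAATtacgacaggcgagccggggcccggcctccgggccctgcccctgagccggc
The window holds 3 matches. Of 22 list members with a promoter in the table, 17 held CCAAT on either strand (77.3%), against 34.5% of 27025 promoters.

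Microglial genes had negative values in 24 of 24 tested members, of which 20 were negative in both comparisons, and 13 were lower at an unadjusted p below 0.05, where 5.29% of all genes were. The median was -0.17, and no member passed at 0.05. For APLP2 loss the median was -0.18, and 6 of the 24 members passed at 0.05. C1qb, a chain of complement C1q, had signals of 969 to 1260 on the APP-loss arrays (median 1141), against 1202 to 1551 on the APP-bearing arrays (median 1346). Its log2 fold change was -0.25 ± 0.05 (adjusted p = 0.0632, limma). C1qc, another C1q chain, gave -0.18 ± 0.05 (adjusted p = 0.148, limma), and its main effect of APLP2 loss was -0.25 (adjusted p = 0.0157, limma). Laptm5, a lysosomal protein of blood-derived cells, gave -0.23 ± 0.06 (adjusted p = 0.147, limma), and Csf1r, the receptor that microglia need to survive, gave -0.14 ± 0.04 (adjusted p = 0.151, limma). Cx3cr1 and Ly86, also of microglia, had values of -0.02 and -0.03. The ranges of the list means overlapped, at 8.82 to 9.27 on the APP-loss arrays and 9.01 to 9.36 on the APP-bearing arrays. The lowest values, 8.82 and 8.85, were those of N-dCKO replicates 3 and 4.

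The promoter of C1qb is shown for the letters AGGAAGT, which resemble the binding sequence of PU.1, a factor that microglia depend on. It covers chr4:136886201-136886450 of GRCm38.p6, minus strand, from RefSeq, with AGGAAGT or its reverse complement in capitals.
C1qb: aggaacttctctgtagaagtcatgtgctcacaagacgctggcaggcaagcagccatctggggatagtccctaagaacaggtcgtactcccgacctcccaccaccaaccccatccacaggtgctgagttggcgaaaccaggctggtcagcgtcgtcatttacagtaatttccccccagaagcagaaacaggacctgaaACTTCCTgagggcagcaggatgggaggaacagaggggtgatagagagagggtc
It holds 1 match. On either strand these letters stood before 4 of 18 microglial genes in the table (22.2%), among them C1qb, C1qc and P2ry12, against 7.8% of all promoters.

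**Figure D3:**
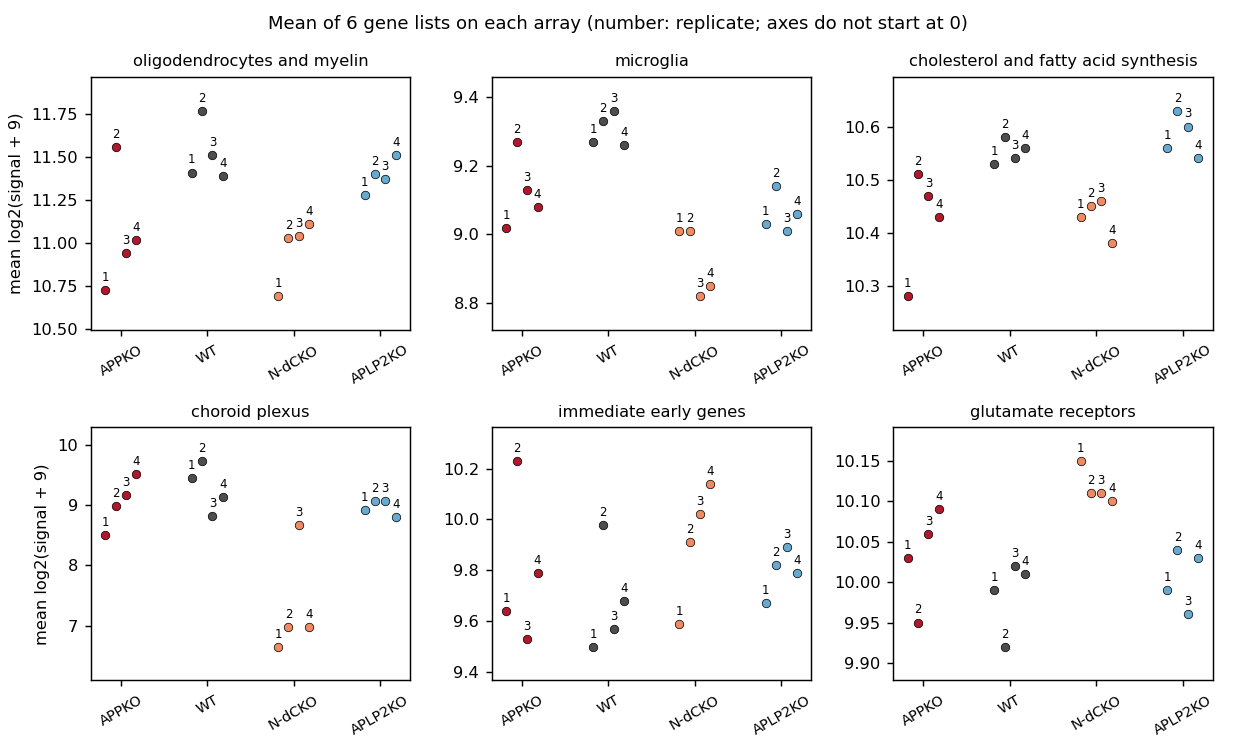
Mean log2(signal + 9) of 6 gene lists on each array, with the replicate number above each point; the axes do not start at 0. APPKO replicate 2 stands at 11.56 in the myelin panel, and N-dCKO replicates 1, 2 and 4 stand at 6.65 to 6.97 in the choroid plexus panel.

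Choroid plexus genes, from the ventricular epithelium that secretes cerebrospinal fluid, had the lowest median of the lists with 5 or more tested members (-0.96, 19 of 20 negative), and 3 arrays carry it. Its list mean on the log2 scale was 6.65, 6.97 and 6.97 on N-dCKO replicates 1, 2 and 4 and 8.66 on N-dCKO replicate 3, against 8.80 to 9.07 in APLP2KO. It was 8.51 to 9.52 in APPKO, against 8.81 to 9.73 in WT. The median was therefore -1.53 in N-dCKO against APLP2KO and -0.28 in APPKO against WT. The same 3 arrays enter the main effect of APLP2 loss, for which the median was -0.93 and 10 of the 20 members passed at 0.05. No member passed for the main effect of APP loss, and 17 were lower at an unadjusted p below 0.05, where 5.29% of all genes were. Kcnj13, a potassium channel of this epithelium, had signals of 24.6, 80.9 and 68.6 on N-dCKO replicates 1, 2 and 4, and of 282 on replicate 3. It had 252 to 639 in APPKO, against 421 to 999 in WT and 390 to 535 in APLP2KO (main effect -1.42 ± 0.30, adjusted p = 0.08, limma). Such signals lie below the filter level of 88.2, so the size of these changes depends on the pseudocount: the list median was -1.02 with a pseudocount of 2 and -0.84 with 36. Ttr, the transthyretin that this tissue secretes, had 110, 283 and 715 on the same 3 arrays and 26344 to 37234 on the other 13, close to the highest signal of each array, so the size of its difference cannot be read from these signals.

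In the comparison of N-dCKO with APLP2KO, 3 genes passed (0.0257%), all lower: App, Cldn2 and Defb11. Cldn2, a claudin of the choroid plexus epithelium, had 41.4, 51.0, 153 and 52.4 in N-dCKO, against 203 to 336 in APLP2KO (-1.80 ± 0.30, adjusted p = 0.0314, limma). Defb11, a beta-defensin, had 33.6, 9.16, 100 and 7.53 in N-dCKO, against 155 to 271 in APLP2KO (-2.69, adjusted p = 0.0314, limma), and was lowest on the same 3 arrays. Signals this low lie at or near background, so the size of this value depends on the pseudocount: the main effect of Defb11 was -1.71, and -1.92 with a pseudocount of 2 and -1.29 with 36. Cldn2 belongs to the choroid plexus list, and with the mean of that list in the model its change is removed by construction. Defb11 is no member, and its main effect was then -0.59 (adjusted p = 0.826, limma). The main effect of APLP2 loss was -0.98 for Cldn2 and -1.84 for Defb11 (adjusted p = 0.0271 and 0.00427, limma). In APPKO against WT they gave -0.27 and -0.72, and neither passed. In N-dCKO against APLP2KO, 21 genes passed at an adjusted p below 0.1 (0.18%). In APPKO against WT only App passed in the unpaired test (0.00857%). With the number as a block within each APLP2 background, 10 genes passed in that comparison.

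Ependymal and motile cilia genes, of the cells that line the ventricles, had 13 of 14 negative values, a median of -0.19 and no member that passed. The median was -0.11 without APPKO replicate 1 and 0.04 with the choroid plexus list mean in the model. Foxj1, the main regulator of motile cilia, had signals of 58.0 to 159 on the APP-loss arrays and 136 to 189 on the APP-bearing arrays (-0.58 ± 0.15, adjusted p = 0.115, limma). The list of leptomeninges and fibroblasts, the cells of the brain's coverings, had a median of -0.40 in N-dCKO against APLP2KO and of 0.03 in APPKO against WT. The main-effect median of -0.16 became -0.06 without APLP2KO replicate 4, -0.08 with the choroid plexus list mean in the model and -0.29 with the Gapdh ratio. Igfbp2, an IGF-binding protein that the choroid plexus list also holds, gave -0.51 ± 0.13 in the main effect (adjusted p = 0.119, limma). The matrix proteoglycan Dcn, which the pyramidal neuron list also holds, gave -0.48 ± 0.08 and -0.07 ± 0.08 in these comparisons (adjusted p = 0.0566 and 1, limma). Its lowest signal was 1766, on N-dCKO replicate 3, with 2261 to 2303 on the other N-dCKO arrays. APLP2KO replicate 4 had the highest mean of this list, 10.12, against 8.98 to 9.73 on the other 15 arrays.

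The choroid plexus level and RNA quality were each added to the model as a covariate. With the choroid plexus list mean in the model, the median was -0.33 for the myelin list, -0.10 for the cholesterol list and -0.18 for the microglial list. Mag then gave -0.44 ± 0.12 (adjusted p = 0.636, limma), and App alone passed. The Gapdh 3'/5' ratio, which rises as RNA degrades, was 0.745 to 0.806 in APPKO and 0.797 to 0.834 in N-dCKO, against 0.752 to 0.786 in WT and 0.741 to 0.817 in APLP2KO. Its mean was 0.0253 higher with APP loss (exact permutation test, p = 0.0486, adjusted p = 0.0972 over both ratios tested), and the difference of the actin ratio was -0.0375 (p = 0.267, exact). With the Gapdh ratio as a covariate the myelin, cholesterol and microglial medians were -0.45, -0.14 and -0.14, and Mag gave -0.50 ± 0.11 (adjusted p = 0.235, limma).

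On the higher side no gene passed at 0.05. The smallest p belonged to Hopx, an atypical homeodomain protein, with signals of 6284 to 7863 on the APP-loss arrays (median 7131), against 4920 to 6291 on the APP-bearing arrays (median 6046). Its log2 fold change was 0.27 ± 0.05 (adjusted p = 0.0632, limma). Vgf, the precursor of several neuropeptides, had signals of 3685 to 4560 on the APP-loss arrays and 3112 to 3848 on the APP-bearing arrays (0.22 ± 0.05, adjusted p = 0.08, limma). For Hopx the ranges touch only at their edges, and for Vgf they overlap in a narrow stretch. The next 8 by p were Acot1 (0.34), an acyl-CoA thioesterase, Ap1g2 (0.59), a subunit of the AP-1 adaptor of vesicle coats, Tlr3 (0.37), a receptor for double-stranded RNA, Nsun5 (0.48), an RNA methyltransferase, Ankrd10 (0.21), Slc8a1 (0.20), the sodium-calcium exchanger, Arid3a (0.49), a DNA-binding protein, and Ythdc2 (0.26), an RNA helicase that binds methylated RNA. Their adjusted p ran from 0.08 to 0.113 (limma). Without APLP2KO replicate 3, Nsun5 gave 0.25 (adjusted p = 0.665, limma). Tlr3 had signals of 233 to 285 on the APP-loss arrays, against 169 to 266 on the APP-bearing arrays.

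On the lower side, after App and Mag and beside Defb11, Enpp6 and C1qb described above, the smallest p belonged to Lgi3, Trim13, Vtn, 9630013A20Rik and Slc12a2, each with an adjusted p of 0.0632 (limma). Lgi3, a secreted protein of the LGI family, had signals of 1201 to 1429 on the APP-loss arrays and 1406 to 1743 on the APP-bearing arrays (-0.29 ± 0.05). Slc12a2, the chloride importer NKCC1, had 2720 to 3974 on the APP-loss arrays and 3740 to 4763 on the APP-bearing arrays (-0.36 ± 0.07). Trim13, a ubiquitin ligase, gave -0.45 ± 0.08, Vtn, the adhesion protein vitronectin, gave -0.28 ± 0.05, and 9630013A20Rik gave -0.34 ± 0.07.

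For 8 genes all arrays of one side lay beyond all arrays of the other (0.0686%). The lower ones besides App and Enpp6 were Bcap29, Cidea, Plxnb3, Strn and Vegfa, and the 1 higher was Minar1. Plxnb3, a semaphorin receptor found in oligodendrocytes, had signals of 492 to 790 on the APP-loss arrays and 805 to 992 on the APP-bearing arrays (-0.36 ± 0.08, adjusted p = 0.082, limma). Vegfa, the main growth factor of blood vessels, had 453 to 577 on the APP-loss arrays and 584 to 666 on the APP-bearing arrays (-0.21 ± 0.06, adjusted p = 0.142, limma). Minar1 had 99.9 to 137 on the APP-loss arrays and 74.2 to 88.1 on the APP-bearing arrays (0.41 ± 0.10, adjusted p = 0.114, limma). These signals are close to the filter level of 88.2.

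Several neuronal lists had small values of the other sign. Glutamate receptor genes were positive in 23 of 25 members with a median of 0.09, and 3 had an unadjusted p below 0.05, where 3.88% of all genes were higher at that level. Gria4, an AMPA receptor subunit, had signals of 1270 to 1521 on the APP-loss arrays and 1040 to 1378 on the APP-bearing arrays (0.15 ± 0.06, adjusted p = 0.399, limma). Grin2b, an NMDA receptor subunit, had signals of 1846 to 2826 on the APP-loss arrays and 1878 to 2641 on the APP-bearing arrays (0.21 ± 0.08, adjusted p = 0.373, limma). Genes of GABAergic interneurons were positive in 16 of 19 members (median 0.09), led by Reln, the secreted protein reelin (0.20 ± 0.06, adjusted p = 0.251, limma). The interneuron median was 0.03 in APPKO against WT and 0.15 in N-dCKO against APLP2KO, and 9 members were positive in both. Reln gave 0.13 and 0.26 in these comparisons, and its main effect of APLP2 loss was 0.24. Immediate early genes, which neurons switch on with activity, were positive in 20 of 24 members (median 0.10). APPKO replicate 2 had the highest mean of this list, 10.23, and without it the median was 0.05. Egr2, a zinc finger factor, gave 0.70 ± 0.22 (adjusted p = 0.225, limma), with signals of 89.7 to 310 on the APP-loss arrays and 61.9 to 130 on the APP-bearing arrays, while Jun gave -0.25 ± 0.08 (adjusted p = 0.274, limma). No member of these 3 lists passed. Median centring of the arrays moves the median of all genes to -0.05 and leaves medians of 0.03, 0.03 and 0.04 for the receptor, interneuron and immediate early lists, and with the choroid plexus list mean in the model they were 0.04, 0.08 and 0.17. Dentate granule neuron genes had a median of -0.06 and were negative in 14 of 16 members, with Dock10, a regulator of small GTPases, at -0.27 ± 0.09 (adjusted p = 0.325, limma).

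**Figure D4:**
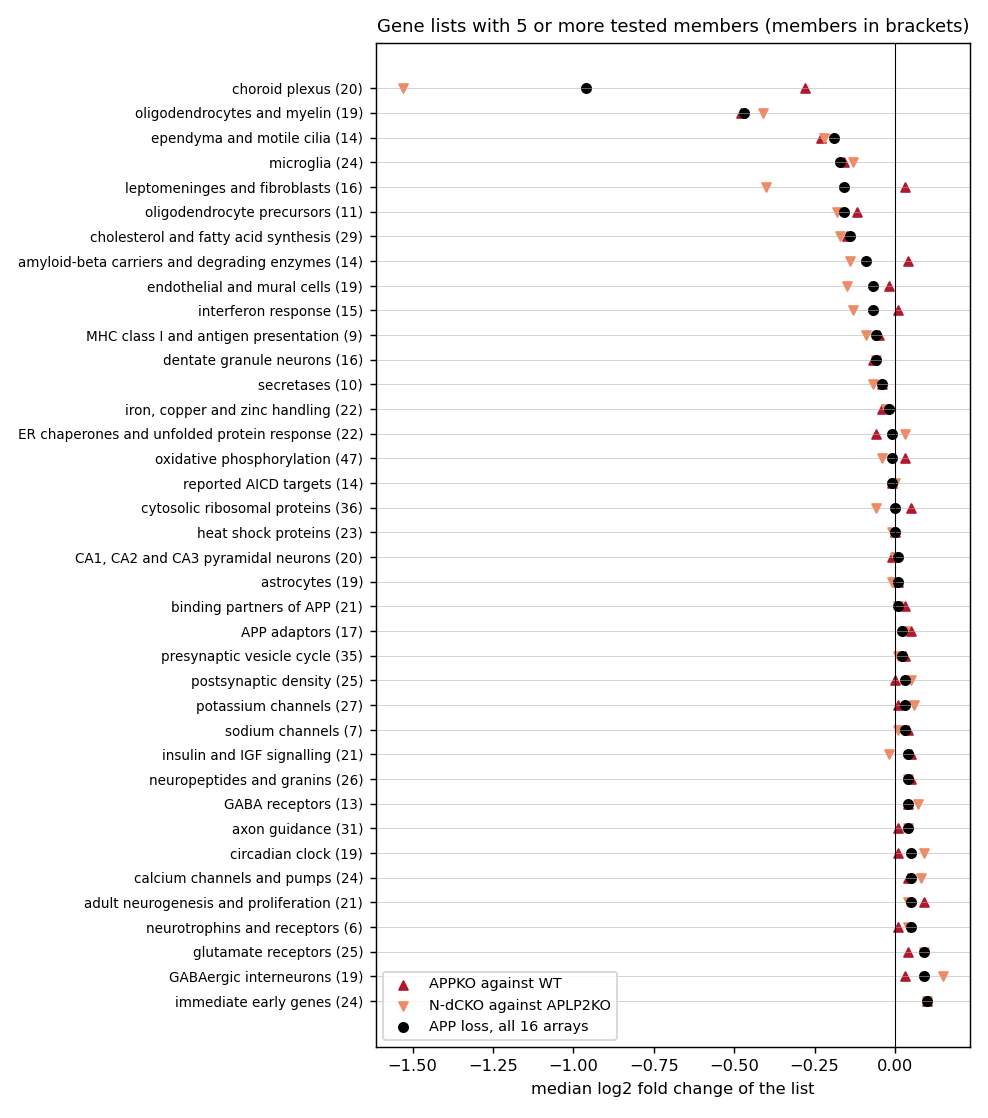
Median log2 fold change of each gene list with 5 or more tested members (number of members in brackets) for APP loss over all 16 arrays, for APPKO against WT and for N-dCKO against APLP2KO. The choroid plexus list differs most between the comparisons (-0.28 and -1.53), and the myelin list has -0.48 and -0.41.

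No gene of the lists that work with APP passed. The 10 tested secretase genes, which cut APP, ran from -0.21 to 0.01, and 8 were negative (median -0.04, and 0.01 with the choroid plexus list mean in the model). Adam10, the main neuronal alpha-secretase, gave -0.04 ± 0.05 (adjusted p = 0.86, limma). Adam17, another protease of its family, gave -0.21 ± 0.08 (adjusted p = 0.342, limma), and Bace1, the beta-secretase, gave 0.01. The 17 adaptors that bind the tail of APP ran from -0.16 for Mapk8ip1 to 0.12 for Apba1, with a median of 0.02. Among 14 genes reported as targets of the APP intracellular domain, 7 were positive and 7 negative, with a median of -0.01. Aqp1, a water channel of the choroid plexus, had the lowest value, -0.91 ± 0.27 (adjusted p = 0.201, limma). It gave -0.07 in APPKO against WT and -1.76 in N-dCKO against APLP2KO, and its main effect of APLP2 loss was -1.52. Cd82, a tetraspanin, had the smallest p, with signals of 270 to 547 on the APP-loss arrays and 366 to 713 on the APP-bearing arrays (-0.48 ± 0.11, adjusted p = 0.091, limma). Amyloid-beta carriers and degrading enzymes had a median of -0.09, and of 0.01 with the choroid plexus list mean in the model. Among them, Ece2, an endothelin-converting enzyme, gave -0.30 ± 0.09 (adjusted p = 0.206, limma), and Plat, a plasminogen activator, gave -0.24 ± 0.06 (adjusted p = 0.129, limma). Among 24 calcium channel and pump genes, 18 were positive, with a median of 0.05, and of -0.00 after median centring. At an unadjusted p below 0.05, 6 were higher and 1 lower, where 3.88% and 5.29% of all genes were. The lower one was Stim2, a sensor of stored calcium (-0.13 ± 0.04, adjusted p = 0.262, limma). Cacna2d1, a channel subunit, gave 0.13 ± 0.05 (adjusted p = 0.325, limma). The neuropeptide list was positive in 18 of 26 members, with a median of 0.04, and of -0.01 after median centring. At that level 4 members were higher and 1 lower. The lower one was Chga, a protein of secretory granules (-0.21 ± 0.07, adjusted p = 0.3, limma).

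Within 10 Mb of App, 61 genes were tested, none passed and 6 had an unadjusted p below 0.05, where 9.16% of all genes did. Their median was 0.02. The smallest p belonged to Clic6 and Kcne2 of the choroid plexus list, 7.43 and 7.23 Mb away, and to Olig1, 6.21 Mb away.

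The 2 comparisons that make up the main effect share no array, so they can be set side by side. Across 11664 genes their log2 fold changes correlated at r = 0.24, and at 0.21 without App; genes are not independent replicates, and no p is given. Signs matched for 55.0% of all genes. In the unpaired test, 604 genes had an unadjusted p below 0.05 in APPKO against WT (5.18%, with 3.16% lower and 2.01% higher). In N-dCKO against APLP2KO 985 genes did (8.44%, with 4.31% lower and 4.13% higher). Of 139 genes with an unadjusted p below 0.05 in both comparisons, 129 had the same sign (92.8%), and of these 100 were lower and 29 higher. The interaction, which tests whether APP loss acts differently without APLP2, gave 0 genes by limma, with 484 at an unadjusted p below 0.05 (4.15%). The smallest p was that of Galc, a lysosomal galactosylceramidase that breaks down myelin lipids. Galc had signals of 370 to 461 in APPKO, against 322 to 379 in WT, and of 410 to 515 in N-dCKO, against 574 to 673 in APLP2KO. Its interaction was -0.70 (adjusted p = 0.557, limma), the next being Gfpt1 and Cyb5d2 at 0.32 and -0.76 (adjusted p = 1, limma). Without N-dCKO replicate 3, 11 genes passed in the interaction.

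**Figure D5:**
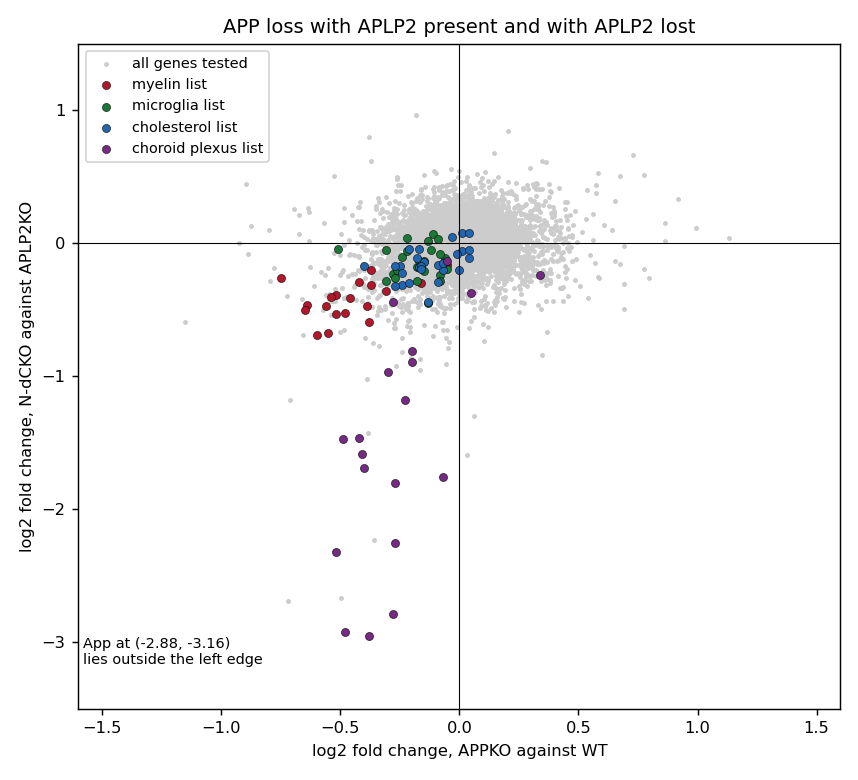
Log2 fold change of each gene in APPKO against WT (x axis) and in N-dCKO against APLP2KO (y axis), with 4 gene lists coloured. The 19 myelin genes lie below and to the left of 0, and the choroid plexus genes spread along the y axis; Ttr is not drawn.

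The main effect of APP loss was also set against that of APLP2 loss, a contrast chosen after the results were seen that equals APPKO minus APLP2KO. It was called for 19 genes (0.163%), 9 lower (0.0772%) and 10 higher (0.0857%), App among the lower ones. No member of the myelin or cholesterol list passed in it, so a difference between both losses is not shown for these lists. The myelin median was -0.47 for APP loss and -0.06 for APLP2 loss, and the cholesterol median -0.14 and 0.03. The microglial median was -0.17 for APP loss and -0.18 for APLP2 loss, and the choroid plexus median -0.96 and -0.93. Mag gave -0.54 in the contrast (adjusted p = 0.108, limma), and Galc passed at -0.60 (adjusted p = 0.00677, limma). The main effect of Galc was -0.09 for APP loss (adjusted p = 0.763, limma) and 0.51 for APLP2 loss (adjusted p = 0.000397, limma).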

How the data were processed

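RNA from 16 hippocampal samples was hybridised to Affymetrix mouse arrays. The values deposited by the authors are linear intensity signals, and the submitters' processing notes name MAS5 (no version was given in the sources used here). The 2% trimmed mean was 500 on every array, and median signals ran from 79.7 to 102. This scaling was kept. Of 45101 probe sets, 64 are controls, 34958 had 1 gene symbol, 932 several and 9160 were not listed; only those with 1 symbol were named. A RefSeq table of GRCm38.p6 gave names, neighbours and promoters only.

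Signals were taken as log2(signal + 9), so that changes of dim genes are understated. The 22551 probe sets whose mean log2 signal reached the median (6.6, or 88.2 in signal) were kept, and the brightest per gene gave 11664 genes. limma 3.58.1 in R 4.3.3, with data.table (version 1.17.8), fitted 4 group means with a variance trend (12 residual and 19.4 moderated degrees of freedom); the steps were tested on simulated data. The comparisons were the main effects of APP and APLP2 loss, APP loss in each APLP2 background, the interaction, and APPKO minus APLP2KO. Permutation tests ran over 4900 splits within backgrounds, in Python 3.11.15 with pandas 2.3.3 and numpy 2.4.6. The number of arrays limits the precision, and the median SE was 0.069 for the main effect and 0.098 within a background.

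Named genes are App and its relatives, called genes, the smallest p up to 10 per direction and 3 in the interaction, genes with non-overlapping arrays, 3 neighbours of App, and 2 to 4 members per list described. Genes outside this rule (Pdgfra, Cspg4, Fads1, Fads2, Fasn, Cx3cr1, Ly86, Bace1, Mal, Mbp and P2ry12) were named after their values were seen. Members and all 39 lists were chosen with earlier results of these data known. Alternatives were other normalizations, pseudocounts, filters, models and covariates, a replicate block, and leaving out each array. Replicate numbers, taken from the titles, were counted as pairing where every same-numbered pair of a comparison had a residual correlation above 0.1; this held for APPKO with WT and not for N-dCKO with APLP2KO.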

Additional observations from a re-analysis of the deposited data

Results flagged for a closer look

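Dixon's rule compares, within a group of 4 arrays, the gap of an extreme array to its nearest neighbour with the whole range, and a share above Dixon's 95% critical value marks the array. It was applied in 216 cases, of which 16 were marked; chance marks about 1 in 20. All values are log2(signal + 9).

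Single genes were marked in 7 cases. Kcne2, a potassium channel subunit of the choroid plexus, stood at 7.35 on N-dCKO replicate 3, with 3.79 to 4.31 on the other N-dCKO arrays. Enpp6 stood at 9.07 on APPKO replicate 1, with 9.60 to 9.66 on the others. Aplp1 stood at 13.95 on APPKO replicate 3, with 13.87 to 13.88 on the others. Nsun5 stood at 7.08 on APPKO replicate 2, with 6.84 to 6.85 on the others. In WT, Ankrd10 stood at 10.76 and Minar1 at 6.48 on replicate 4, and Gfpt1 at 11.23 on replicate 2.

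Mean signals of lists were marked in 9 cases. The choroid plexus mean was 8.66 on N-dCKO replicate 3, with 6.65 to 6.97 on the others. The ependymal mean was 7.21 on APPKO replicate 1, with 7.79 to 7.88 on the others. The leptomeningeal mean was 9.73 on APPKO replicate 4, with 9.38 to 9.41 on the others, and 10.12 on APLP2KO replicate 4, with 9.39 to 9.49 on the others. The mean of reported targets of the APP intracellular domain was 9.97 on APPKO replicate 4 and 9.78 on WT replicate 3. The dentate granule mean was 9.86 on N-dCKO replicate 1 and 10.01 on WT replicate 4, and the neuropeptide mean was 9.90 on WT replicate 2.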

How the results depend on the processing

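App passed with a negative value in every alternative run. The main effect called 2 genes, and 2 again in the additive model, with a pseudocount of 2 or 36 and with the 75th percentile filter. It called 1 after quantile normalization, with no filter, no variance trend, an ordinary test, and the choroid plexus or Gapdh covariate. It called 5 without the APLP2 term, with the mean over probe sets and with array weights, 29 after median centring and 54 at an adjusted p below 0.1. Leaving out 1 array gave 1 to 94, with 94 without APPKO replicate 2, 28 without N-dCKO replicate 3 and 10 without N-dCKO replicate 4. Median centring moved the median of all genes to -0.05, and the share of lower genes among those at an unadjusted p below 0.05 was then 92.0%, against 57.7% in the scaling used. Mag was not called after quantile normalization (adjusted p = 0.0541, limma), with no filter (0.092), no variance trend (0.133) or an ordinary test (0.2).

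With APLP2 lost, the 3 calls became 1 with no filter, the 75th percentile filter, no variance trend, an ordinary test or the Gapdh covariate, 5 with a pseudocount of 36, 17 after median centring, 30 with array weights, 21 at an adjusted p below 0.1, and 1 to 35 with 1 array left out (35 without N-dCKO replicate 3, 23 without APPKO replicate 1). With APLP2 present the 1 call became 1 to 16 (16 without APPKO replicate 2), and the 0 of the interaction 0 to 11. APPKO minus APLP2KO, with 19 calls, gave 12 after median centring, 6 with the 75th percentile filter, 10 with no variance trend, 4 with an ordinary test, and 9 to 24 with 1 array left out (12 without APPKO replicate 1, 9 without APPKO replicate 4).

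Residual correlations of same-numbered arrays, over all pairs of groups, ran from -0.022 to 0.301 (median 0.051), with -0.2 to 0.173 for other pairs, and 16 of 16 arrays correlated best with their own number, a hint from the data and not from the design. The pairing rule was met for APPKO with WT alone. With 1 replicate block per number the main effect called 66 genes, 62 lower, of which 13 belong to the myelin list; the comparison with APLP2 lost called 17, that with APLP2 present 1, and APPKO minus APLP2KO 31. With the block within each APLP2 background, added after the data were seen, the main effect called 142, the comparison with APLP2 present 10, that with APLP2 lost 58 and the interaction 0.

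With the choroid plexus covariate, values near 0 are built in for the members of that list, Clic6 (0.01), Kcne2 (0.03), Aqp1 (0.12) and Ttr (0.09, a sign without a readable size). Signs also turned with it for Aplp1 (0.04), Egfr (-0.01), Mia (0.01) and Dynlrb2 (0.06), with the mean over probe sets for Aplp2 (0.04), and without APLP2KO replicate 3 for Aplp1 (0.00). None of these genes passed the test of APP loss, and the causes of these other turns were not tested. The myelin median stayed between -0.52 and -0.33, the cholesterol median between -0.20 and -0.10 and the microglial median between -0.22 and -0.13 in all alternatives run. The 75th percentile filter left no ependymal gene.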

Other observations

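Several large groups of genes had values close to 0 with APP loss. The 47 tested genes of oxidative phosphorylation ran from -0.07 to 0.07 with a median of -0.01, and 0 of them had an unadjusted p below 0.05, where 9.16% of all genes did (limma). The 35 genes of the presynaptic vesicle cycle had a median of 0.02, with 1 higher and 1 lower at that level. Astrocyte genes had a median of 0.01, with 11 of 19 positive, and 2 were higher and 1 lower at that level. Genes of CA1, CA2 and CA3 pyramidal neurons had a median of 0.01, with 12 of 20 positive. Of these 20, 4 were higher and 1 lower at that level, where 3.88% and 5.29% of all genes were. The lower one was Dcn, which the leptomeningeal list also holds. Endothelial and mural cell genes were negative in 15 of 19 members with a median of -0.07, and none had an unadjusted p below 0.05.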
